A study of Homo sapiens with 12 samples.

Results

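Messenger RNA of 9 genes was followed in T47D, a breast cancer cell line that is positive for the estrogen receptor: the hormone receptors ESR1 and PGR and the luminal transcription factors FOXA1, GATA3, ELF3, SPDEF, TFAP2A, TFAP2C and XBP1. They were taken by symbol from a table of 27864 genes, in which each had a single row, and all 9 were among the 16081 genes with enough counts to be tested. The 4 groups were NF1 knockout cells (NF1KO) under 3 µM BYL719 (3 libraries), NF1KO cells under the vehicle DMSO (2 libraries), control cells (CTRL) under 3 µM BYL719 (3 libraries) and CTRL cells under DMSO (3 libraries), all treated for 48 h. BYL719 (alpelisib) inhibits the alpha isoform of PI3K, and NF1 encodes neurofibromin, which switches RAS off and has also been described as a corepressor of the estrogen receptor. All 4 groups share the T47D background. The sources used here do not say whether the NF1KO line is 1 clone or a pool, or what the control line carries, so the loss of NF1 and any other difference between the 2 lines cannot be told apart. The design text names 3 experimental replicates, but the sources do not say that these came from separate cultures. The p-values thus measure the spread between these libraries, which may be technical.

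The estrogen receptor (ESR1) and the progesterone receptor (PGR) are ligand-activated transcription factors, and PGR is a classical estrogen-induced gene. FOXA1 opens chromatin for the estrogen receptor, and GATA3 acts with both in luminal mammary cells. ELF3 and SPDEF are epithelial ETS factors, TFAP2A and TFAP2C are AP-2 factors of the ectoderm and mammary gland, and XBP1 is a bZIP factor of the unfolded protein response that is abundant in luminal tumours. Inhibition of PI3K is known to increase estrogen receptor-dependent transcription in estrogen receptor-positive breast cancer cells.

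The 11 libraries held between 53283945 and 60148876 counts. NF1 lay between 0.4 and 0.891 CPM (normalised read counts, relative to library sizes scaled by TMM) in the 5 NF1KO libraries, against 147 to 289 CPM in the 6 CTRL libraries. The luminal markers KRT8 (3540 to 5120 CPM) and CDH1 (705 to 823 CPM) were abundant in every library. The basal markers KRT5 and KRT14 reached at most 0.0508 and 0.279 CPM, SOX10 was at 0, and the leukocyte marker PTPRC reached at most 0.0345 CPM. The replicate-1 libraries of CTRL stood apart: their deviations from the group means correlated at 0.595 with each other across genes, and at -0.362 to -0.419 with the other CTRL libraries of the other treatment. Each difference is given as a log2 fold change ± SE, from edgeR's quasi-likelihood test, 2-sided and adjusted over all 16081 genes, and an adjusted p under 0.05 is a call. Fewer cells of a type and less RNA per cell cannot be told apart in bulk RNA.

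By level, XBP1, PGR and GATA3 lay at percentiles 99.8, 99.6 and 99.2 of the tested genes, ESR1, FOXA1, SPDEF and TFAP2C between 92.2 and 96.7, TFAP2A at 81.7 and ELF3 at 71.5. Per kilobase of annotated exon, the order in CTRL DMSO cells was XBP1 with 454 ± 52.5 CPM per kb, GATA3 with 168 ± 20, SPDEF with 86.2 ± 12.3, FOXA1 with 75.9 ± 0.844, PGR with 57.3 ± 5.23, TFAP2C with 54.6 ± 2.07, ESR1 with 23.3 ± 1.85, TFAP2A with 8.8 ± 0.171 and ELF3 with 5.79 ± 0.923 (SD, n = 3). The neighbours SPDEF and FOXA1, and PGR and TFAP2C, did not differ beyond their spread. The lengths merge the exons of all annotated transcripts, so they can exceed that of any 1 transcript. For ELF3 they came to 7191 bases, more than its RefSeq gene (bases 202010587 to 202017183). Its level per kilobase is thus understated, and the order depends on this choice of length.

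**Figure D1:**
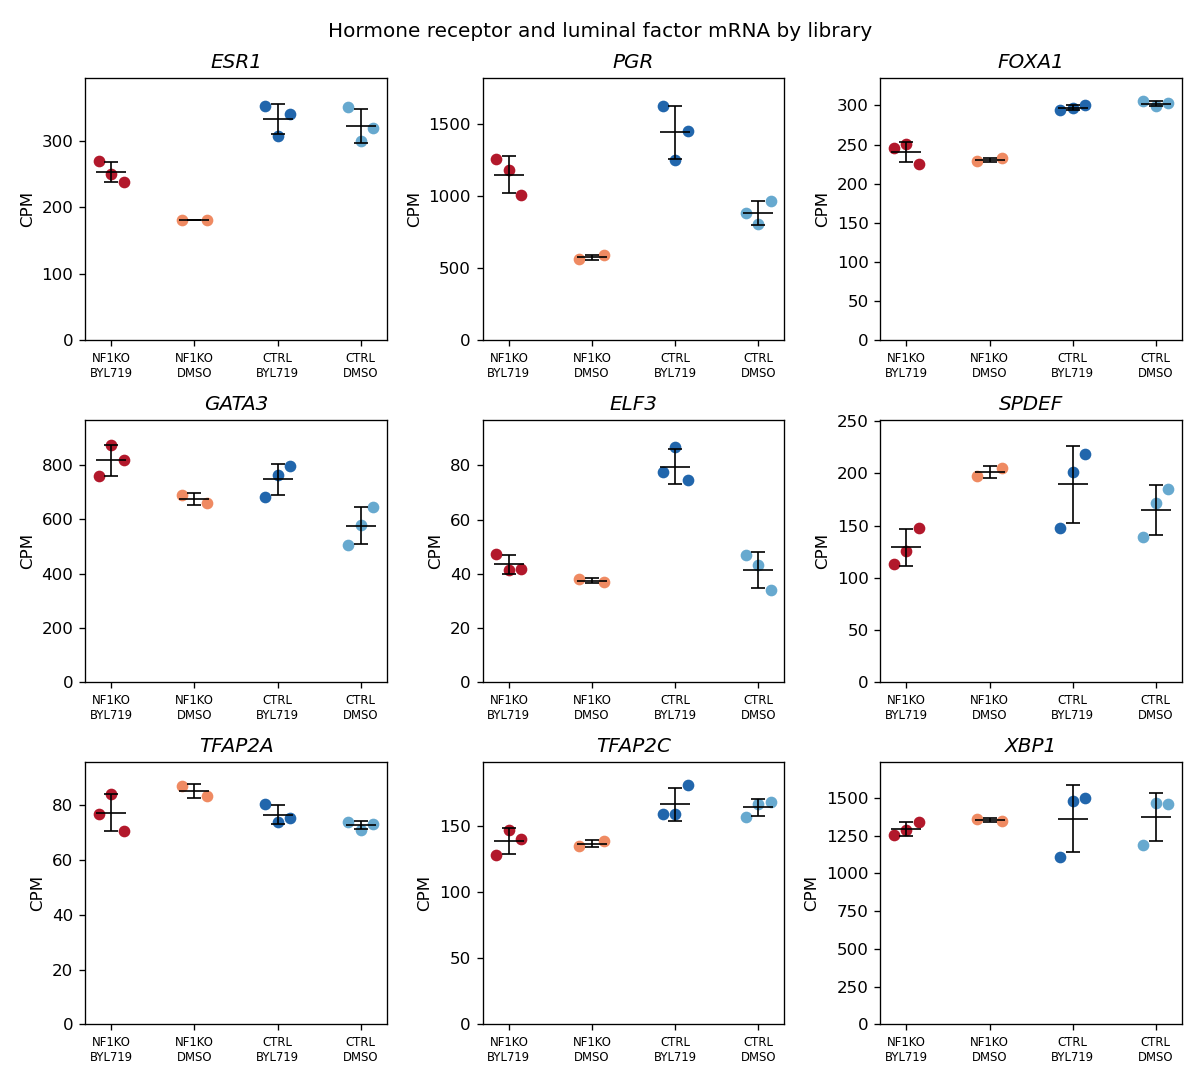
Normalised read counts (CPM, y axis from 0) of the 9 genes in each library of NF1KO BYL719, NF1KO DMSO, CTRL BYL719 and CTRL DMSO cells. Points are libraries, the long bar is the mean and the whiskers are the SD; the ESR1 and FOXA1 points of NF1KO cells all lie below those of CTRL cells, and the ELF3 points of CTRL BYL719 cells lie above all others.

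Each gene was tested for how NF1KO differed from CTRL in DMSO and in BYL719, how BYL719 differed from DMSO in NF1KO and in CTRL, and for whether the 2 drug effects differed from each other. In DMSO, 4 of the 9 genes were lower in NF1KO than in CTRL (ESR1, PGR, FOXA1 and TFAP2C) and none was higher, where 10.3% of all tested genes were lower and 9.99% higher; 2 were higher at an unadjusted p under 0.05, 1 with DESeq2 and 0 with limma-voom. In BYL719, 6 of 9 were lower in NF1KO (the same 4 with ELF3 and SPDEF) and none was higher, where 19% of all genes were lower and 20.8% higher. For the genes that were not lower, edgeR, DESeq2 and limma-voom all called 0 higher in BYL719, and 0 had an unadjusted p under 0.05 in that direction. BYL719 raised 2 genes (ESR1 and PGR) and lowered 1 (SPDEF) in NF1KO cells, where 10.3% and 8.47% of all genes were called, and it raised 3 (PGR, GATA3 and ELF3) in CTRL cells, where 22.6% of all genes rose. The drug effect differed between the lines for 3 genes: it was higher in NF1KO cells for ESR1, as for 5.68% of all genes, and lower for ELF3 and SPDEF, as for 3.71%, with 9.39% of all genes called in all. The share of the 9 genes called in CTRL cells under BYL719 was thus below the 44.4% of all genes called in either direction, and it was above the share of all genes in the other 4 comparisons (20.3% and 39.8% between the lines, 18.7% for BYL719 in NF1KO cells). Without NF1KO DMSO replicate 2, 2 genes were called between the lines in DMSO, and without NF1KO DMSO replicate 3, 1 was called for BYL719 in NF1KO cells. Of the 3 differences between drug effects, 0 were called without either NF1KO DMSO library, and 1 without CTRL BYL719 replicate 2 or 3, CTRL DMSO replicate 1 or NF1KO BYL719 replicate 1 or 2. The median log2 difference of the 9 genes between NF1KO and CTRL was -0.147 in DMSO and -0.304 in BYL719, against -0.0115 and -0.00249 over all tested genes. In NF1KO against CTRL cells the libraries of the groups did not overlap for 7 of the 9 genes in DMSO, where this held for 56.1% of all genes, and for 4 in BYL719, where it held for 48.9%. BYL719 and DMSO libraries did not overlap for 6 genes in NF1KO cells, where this held for 54.7% of all genes, and for 4 in CTRL cells, where it held for 51.1%. Comparisons that have a group in common are not independent of each other.

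**Figure D2:**
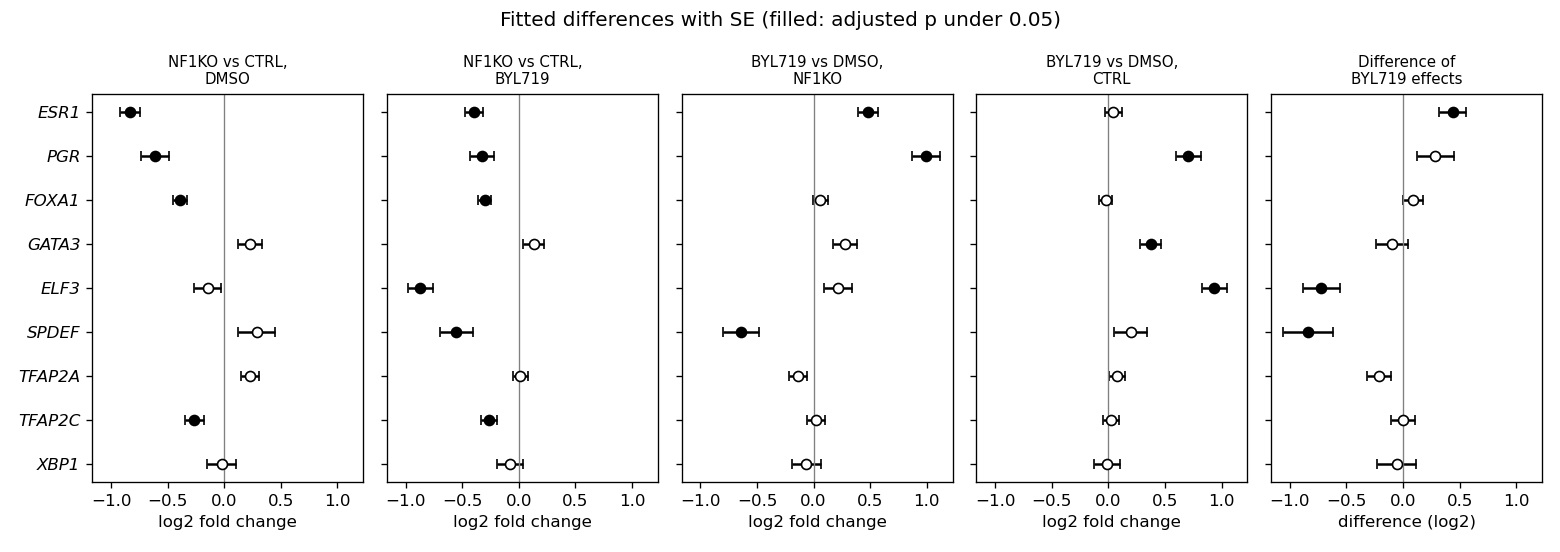
Fitted log2 differences (x axis) with their SE for the 9 genes in the 5 comparisons, from NF1KO against CTRL at the left to the difference of the BYL719 effects (NF1KO minus CTRL) at the right. Filled points have an adjusted p under 0.05; no filled point of the comparisons between the lines lies above 0.

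ESR1 lies at chromosome 6, bases 151656672 to 152129619 of GRCh38. It measured 269, 251 and 239 CPM in NF1KO BYL719 libraries, 180.5 and 181 CPM in NF1KO DMSO libraries, 351, 307 and 339.8 CPM in CTRL BYL719 libraries, and 349.9, 299 and 319 CPM in CTRL DMSO libraries. Every NF1KO library was below every CTRL library, and the NF1KO DMSO libraries were the lowest. In DMSO, ESR1 fell by 0.83 ± 0.09 on the log2 scale in NF1KO cells relative to CTRL cells (adjusted p = 3.3e-05), which is 56.1% of the CTRL level. In BYL719, the difference was -0.40 ± 0.08 (adjusted p = 0.00141). BYL719 raised ESR1 by 0.48 ± 0.09 in NF1KO cells (adjusted p = 0.00327), while in CTRL cells the difference was 0.05 with a 95% interval of -0.12 to 0.21 (adjusted p = 0.67). The drug effects differed by 0.44 ± 0.12 (adjusted p = 0.035). That call was lost without any one of 8 libraries (CTRL BYL719 replicate 2 or 3, CTRL DMSO replicate 1 or 3, NF1KO BYL719 replicate 1 or 2, NF1KO DMSO replicate 2 or 3), with adjusted p between 0.064 and 0.147, and the rise in NF1KO cells missed the threshold without NF1KO DMSO replicate 3 (adjusted p = 0.0502).

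PGR lies at chromosome 11, bases 101029624 to 101129813. Its level was 1256, 1179 and 1008 CPM in NF1KO BYL719 libraries, 565 and 589 CPM in NF1KO DMSO libraries, 1620, 1250 and 1452 CPM in CTRL BYL719 libraries, and 878.5, 804 and 965 CPM in CTRL DMSO libraries. BYL719 libraries were above DMSO libraries of the same line without overlap, and in BYL719 the lines overlapped, since NF1KO replicate 1 stood above CTRL replicate 2. BYL719 raised PGR by 0.99 ± 0.13 in NF1KO cells (adjusted p = 0.000422, 1.99-fold) and by 0.71 ± 0.11 in CTRL cells (adjusted p = 0.000251). The difference of these effects was 0.29, with a 95% interval of -0.07 to 0.64 (adjusted p = 0.362). PGR was lower in NF1KO than in CTRL cells, at a log2 fold change of -0.61 ± 0.12 in DMSO (adjusted p = 0.00412) and one of -0.33 ± 0.11 in BYL719 (adjusted p = 0.0308). The call in DMSO was lost without NF1KO DMSO replicate 2 (adjusted p = 0.0545). The call in BYL719 was lost when only the compared libraries were fitted (adjusted p = 0.0612), without both CTRL replicate-1 libraries (0.0768), and without CTRL BYL719 replicate 1 (0.0932) or 3 (0.0639) or NF1KO BYL719 replicate 2 (0.0603) or 3 (0.116).

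FOXA1 lies at chromosome 14, bases 37589552 to 37595249. It measured 246, 250.4 and 226 CPM in NF1KO BYL719 libraries, 229 and 233 CPM in NF1KO DMSO libraries, 294.5, 297 and 300.4 CPM in CTRL BYL719 libraries, and 306, 299 and 303 CPM in CTRL DMSO libraries. All 5 NF1KO libraries were below all 6 CTRL libraries. FOXA1 fell in NF1KO cells by 0.39 ± 0.07 on the log2 scale in DMSO (adjusted p = 0.00113) and, with the drug in both lines, by 0.30 ± 0.06 (adjusted p = 0.00115), and both calls held in every alternative run. BYL719 effects were 0.06 in NF1KO cells (95% interval -0.08 to 0.20, adjusted p = 0.564) and -0.03 in CTRL cells (-0.15 to 0.10, adjusted p = 0.757).

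GATA3 lies at chromosome 10, bases 8045333 to 8075198. Its level was 759.6, 874 and 818 CPM in NF1KO BYL719 libraries, 691 and 660 CPM in NF1KO DMSO libraries, 683, 763 and 794.5 CPM in CTRL BYL719 libraries, and 507, 579 and 644 CPM in CTRL DMSO libraries. In CTRL cells replicate 1 was the lowest in both treatments, and the drug raised GATA3 by 0.37 ± 0.09 (adjusted p = 0.00666). In NF1KO cells the rise was 0.27 ± 0.11 and missed the threshold (adjusted p = 0.091), although the groups did not overlap; it passed with only the compared libraries (adjusted p = 0.0285), without both CTRL replicate-1 libraries (0.0104) or CTRL DMSO replicate 1 alone (0.0493), and with a replicate block over both lines (0.00404) or within each line (0.000131). The difference of the drug effects was -0.10 (95% interval -0.41 to 0.21). NF1KO cells were at a log2 difference of 0.23 from CTRL cells in DMSO (adjusted p = 0.145) and, with the drug in both lines, of 0.13 (adjusted p = 0.298), so that GATA3 was not among the genes that fell in NF1KO cells.

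ELF3 and SPDEF, the 2 ETS factors among the 9 genes, were the ones with the largest differences between the drug effects of the 2 lines. ELF3 (chromosome 1, bases 202010587 to 202017183) measured 47.5, 41.3 and 41.8 CPM in NF1KO BYL719 libraries, 38.3 and 36.8 CPM in NF1KO DMSO libraries, 77.5, 86.8 and 74.45 CPM in CTRL BYL719 libraries, and 47.1, 43.45 and 34.2 CPM in CTRL DMSO libraries. The CTRL BYL719 libraries were high and the other 3 groups lay close together. BYL719 raised ELF3 by 0.94 ± 0.11 in CTRL cells (adjusted p = 2.92e-05), against 0.21 ± 0.12 in NF1KO cells (adjusted p = 0.255). The difference of the effects was -0.72 ± 0.16 (adjusted p = 0.0151), and it missed the threshold without NF1KO DMSO replicate 2 (adjusted p = 0.0845) or 3 (0.0614). In BYL719, ELF3 was lower in NF1KO than in CTRL cells, at a log2 fold change of -0.87 ± 0.11 (adjusted p = 4.83e-05). In DMSO the difference was -0.15, with a 95% interval of -0.41 to 0.12.

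SPDEF (chromosome 6, bases 34537802 to 34556329) measured 113, 126 and 148 CPM in NF1KO BYL719 libraries, 197 and 205 CPM in NF1KO DMSO libraries, 147.9, 201.5 and 219 CPM in CTRL BYL719 libraries, and 139, 172 and 185 CPM in CTRL DMSO libraries. In NF1KO cells the BYL719 libraries were all below the DMSO libraries, while in CTRL cells replicate 1 was low in both treatments and the groups overlapped. BYL719 lowered SPDEF in NF1KO cells by a log2 fold change of -0.64 ± 0.16 (adjusted p = 0.0176). In CTRL cells the effect was 0.20 ± 0.15 (adjusted p = 0.297); with a replicate block inside each line it was 0.19 and passed the test (adjusted p = 0.00157), as it did with a block over both lines (0.0189) and, at 0.35, without CTRL BYL719 replicate 1 (0.0312). The drug effects differed by -0.84 ± 0.22 (adjusted p = 0.0316). That difference was lost without any one of 8 libraries, all but CTRL BYL719 replicate 1, CTRL DMSO replicate 3 and NF1KO BYL719 replicate 3 (adjusted p between 0.0507 and 0.123), and the fall in NF1KO cells without NF1KO BYL719 replicate 1 or 2 or NF1KO DMSO replicate 2 or 3 (0.0601 to 0.118). In BYL719 the line difference was -0.55 ± 0.15 (adjusted p = 0.00987), where NF1KO replicate 3 and CTRL replicate 1 were level, and in DMSO it was 0.29 ± 0.16 (adjusted p = 0.236).

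The 250 bases before the single or outermost annotated start are given here for ELF3, SPDEF and PGR, 3 of the genes that responded to BYL719 in at least 1 line. Those of XBP1, which did not pass in any comparison, are given with them. ESR1 and GATA3 also responded in 1 line, and their windows are not printed. All are from RefSeq on GRCh38.p14, read 5′ to 3′ on the strand of the gene, and capitals mark the motifs found. ELF3 is at chr1:202010337-202010586 (plus strand), SPDEF at chr6:34556330-34556579 (minus strand), PGR at chr11:101129814-101130063 (minus strand) and XBP1 at chr22:28800570-28800819 (minus strand).
ELF3: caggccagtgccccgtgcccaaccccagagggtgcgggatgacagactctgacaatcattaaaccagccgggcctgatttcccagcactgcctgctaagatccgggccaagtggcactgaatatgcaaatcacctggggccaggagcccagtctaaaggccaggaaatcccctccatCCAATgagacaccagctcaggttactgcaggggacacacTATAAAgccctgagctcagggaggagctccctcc
SPDEF: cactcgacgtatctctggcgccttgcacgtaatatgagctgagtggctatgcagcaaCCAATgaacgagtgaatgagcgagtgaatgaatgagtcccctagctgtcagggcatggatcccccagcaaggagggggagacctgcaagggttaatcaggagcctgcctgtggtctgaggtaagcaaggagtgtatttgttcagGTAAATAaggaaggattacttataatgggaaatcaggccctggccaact
PGR: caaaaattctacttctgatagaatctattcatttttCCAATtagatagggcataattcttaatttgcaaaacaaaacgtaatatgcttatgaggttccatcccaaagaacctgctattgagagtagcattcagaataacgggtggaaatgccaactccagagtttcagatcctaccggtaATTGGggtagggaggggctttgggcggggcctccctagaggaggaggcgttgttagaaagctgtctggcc
XBP1: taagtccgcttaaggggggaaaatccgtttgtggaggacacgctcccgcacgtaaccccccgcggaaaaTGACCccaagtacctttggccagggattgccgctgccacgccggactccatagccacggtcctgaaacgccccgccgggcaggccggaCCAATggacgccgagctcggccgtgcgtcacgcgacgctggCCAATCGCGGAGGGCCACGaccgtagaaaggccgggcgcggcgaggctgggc
Both strands were searched for the TATA box TATAAA, the CCAAT box CCAAT, the forkhead words TGTTTAC and TATTTAC, the estrogen response element (GGTCA, any 3 bases and TGACC) and its arm GGTCA alone, the GATA words TGATAA and AGATAA, the ETS word CCGGAAG, the AP-2 word GCCNNNGGC, the ER stress response element, a CCAAT followed by 9 bases and CCACG, and the unfolded protein response word TGACGTGG. The ELF3 window held a CCAAT starting 73 bases and a TATAAA starting 34 bases before the start, words found in 32% and 10.8% of 34788 distinct windows of that length. The SPDEF window held a CCAAT at 193 bases and GTAAATA, the reverse of the forkhead word TATTTAC, at 49 bases, a word in 2.41% of windows. The PGR window held a CCAAT at 214 bases and its reverse ATTGG at 70, and neither a whole estrogen response element nor its arm, a word in 32.6% of windows. The windows of the other 2 annotated PGR starts overlap, and each held the arm as TGACC, at 166 and at 180 bases before its start, and an AP-2 word at 181 and at 195. The XBP1 window held a CCAAT at 93 bases, a TGACC at 181 and, at 52 bases, a complete ER stress response element that begins with a CCAAT, found in 0.0747% of windows. Of the windows not printed, the outermost of GATA3 held a GGTCA at 213 bases, the ETS word CCGGAAG at 66 and an AP-2 word at 223. The ETS word was found in 8.5% of windows and the AP-2 word in 19.8%. The outermost ESR1 window held an ATTGG at 231 bases and a CCAAT at 87. Of the 9 genes 8 had a promoter entry, and TFAP2C had none.

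Of the AP-2 factors, TFAP2C (chromosome 20, bases 56629306 to 56639283) was lower in NF1KO cells and TFAP2A (chromosome 6, bases 10396677 to 10419659) was not. TFAP2C measured 128, 147 and 140.1 CPM in NF1KO BYL719 libraries, 135 and 138 CPM in NF1KO DMSO libraries, 159.1, 159.4 and 181 CPM in CTRL BYL719 libraries, and 157, 167 and 168 CPM in CTRL DMSO libraries. All NF1KO libraries were below all CTRL libraries, at log2 differences of -0.26 ± 0.08 in DMSO (adjusted p = 0.0396) and, with the drug in both lines, -0.26 ± 0.07 (adjusted p = 0.0118). The call in DMSO was lost with no filter on low counts (adjusted p = 0.0504) and without CTRL DMSO replicate 2 (0.0928) or 3 (0.0913) or NF1KO DMSO replicate 2 (0.208) or 3 (0.16), and that in BYL719 without NF1KO BYL719 replicate 1 (0.0516). TFAP2A measured 76.8, 84.3 and 70.7 CPM in NF1KO BYL719 libraries, 87 and 83.3 CPM in NF1KO DMSO libraries, 80.4, 74 and 75.2 CPM in CTRL BYL719 libraries, and 73.8, 71.2 and 73.35 CPM in CTRL DMSO libraries. In DMSO the NF1KO libraries stood above the CTRL libraries, at 0.23 ± 0.08, which missed the threshold (adjusted p = 0.0609) but passed with DESeq2 (0.0392), with only the compared libraries (0.0365), with a replicate block over both lines (0.0302) and without both CTRL replicate-1 libraries (0.0365), CTRL BYL719 replicate 1 (0.0406) or NF1KO BYL719 replicate 2 (0.0471) or 3 (0.0343). The difference of its drug effects was -0.21 ± 0.11 (adjusted p = 0.282), which passed with the replicate block within each line (adjusted p = 0.0361).

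XBP1 (chromosome 22, bases 28794560 to 28800569) had the highest level per length of the 9 genes. It measured 1252, 1291 and 1341 CPM in NF1KO BYL719 libraries, 1364 and 1345 CPM in NF1KO DMSO libraries, 1110, 1481 and 1500 CPM in CTRL BYL719 libraries, and 1190, 1469 and 1461 CPM in CTRL DMSO libraries. CTRL replicate 1 was low in both treatments, and all groups overlapped except NF1KO BYL719 and NF1KO DMSO. None of the 5 differences passed the test, and their log2 values lay between -0.08 and -0.01. Without both CTRL replicate-1 libraries, XBP1 was lower in NF1KO than in CTRL cells in BYL719, at -0.20 (adjusted p = 0.00988).

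Raw counts of pairs of these genes were also set against each other within a library, which needs no scaling between libraries. PGR per ESR1 count was 4.67, 4.7 and 4.23 in NF1KO BYL719 libraries and 3.13 and 3.25 in NF1KO DMSO libraries, against 4.61, 4.07 and 4.27 in CTRL BYL719 libraries and 2.51, 2.69 and 3.02 in CTRL DMSO libraries. The ratio was thus higher in BYL719 than in DMSO libraries of either line, without overlap. GATA3 per ESR1 count was 2.82, 3.49 and 3.43 in NF1KO BYL719 libraries and 3.83 and 3.64 in NF1KO DMSO libraries, against 1.94, 2.48 and 2.34 in CTRL BYL719 libraries and 1.45, 1.94 and 2.02 in CTRL DMSO libraries. Here every NF1KO library was above every CTRL library. TFAP2A per TFAP2C count ranged from 0.505 to 0.644 in the 5 NF1KO libraries and from 0.416 to 0.505 in the 6 CTRL libraries. The lines overlapped narrowly: CTRL BYL719 replicate 1 (4755 per 9407 counts) lay slightly above NF1KO BYL719 replicate 3 (3890 per 7708 counts). ELF3 per SPDEF count was 0.419, 0.328 and 0.282 in NF1KO BYL719 libraries and 0.194 and 0.179 in NF1KO DMSO libraries, against 0.524, 0.431 and 0.34 in CTRL BYL719 libraries and 0.339, 0.253 and 0.185 in CTRL DMSO libraries, so that it was higher under BYL719 in both lines, with no test made. Within a ratio it cannot be told which of its 2 genes moved.

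**Figure D3:**
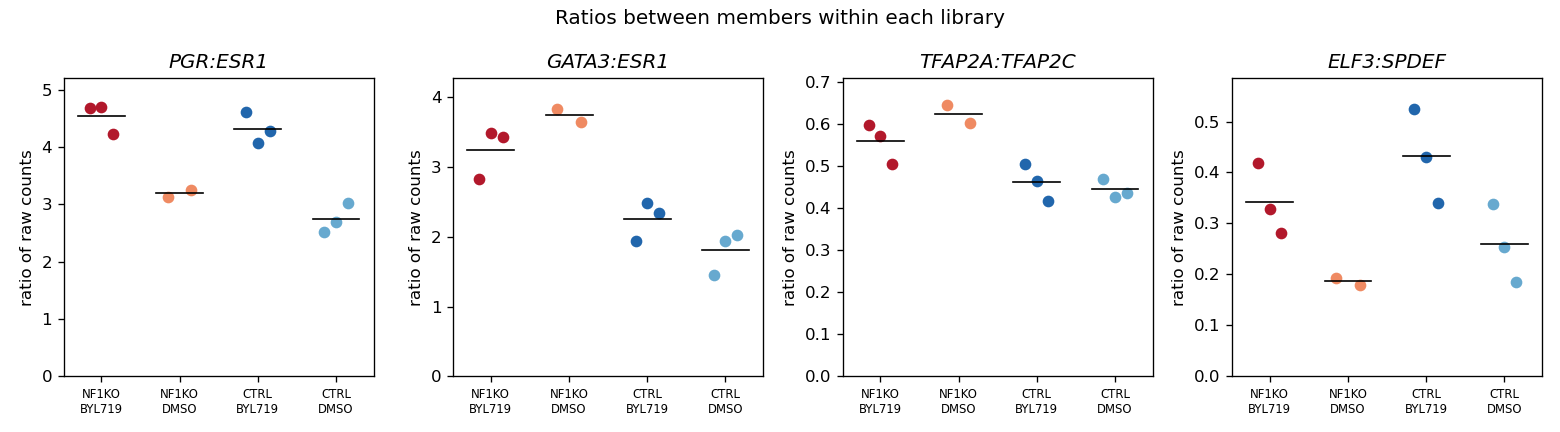
Ratios of raw counts between pairs of the 9 genes within each library (y axis from 0) in NF1KO BYL719, NF1KO DMSO, CTRL BYL719 and CTRL DMSO cells. Points are libraries and bars are means; GATA3 per ESR1 is at least 2.82 in all NF1KO libraries and at most 2.48 in all CTRL libraries.

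Likeness of pattern was measured as the root mean square difference of log2 CPM, each gene centred on its own mean, over the 11 libraries, among 10950 protein-coding genes of sufficient level. The genes closest to ESR1 were NAPEPLD (0.05), ELOVL2 (0.0847) and JAK1 (0.0974), where the root mean square deviation of ESR1 about its own mean was 0.332. H6PD (0.133), ZBTB47 (0.135) and ZFP14 (0.144) were closest to PGR, whose own value was 0.471. For FOXA1 they were GTPBP10 (0.054), TAB2 (0.059) and SYNJ2 (0.0597), and for TFAP2C PTPRF (0.0582), SUFU (0.059) and MBD5 (0.0613). The glucocorticoid receptor gene NR3C1 (0.136) was the third closest to ELF3, after ERVMER34-1 (0.115) and KCNMA1 (0.133). S100A16 (0.128), ANKRD34A (0.13) and TRPT1 (0.132) were closest to SPDEF. No other of the 9 genes was among the 3 closest to any of these.

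Genes of the same families, of hormone signalling and of luminal identity were counted as lists chosen with earlier results of these data known. Each count is to be read against the share of all tested genes called in either direction. That was 20.3% between the lines in DMSO, 39.8% in BYL719, and for BYL719 18.7% in NF1KO and 44.4% in CTRL cells. Calls of genes named from here on held under the alternatives run unless a library is given. Among 15 tested relatives of the 9 genes, 3 were higher and 4 lower in NF1KO than in CTRL cells in DMSO, and 3 and 6 in BYL719. BYL719 raised 3 and lowered 1 in NF1KO cells, and raised 7 and lowered 3 in CTRL cells; without the 2 CTRL replicate-1 libraries it raised 5 in NF1KO cells. EHF, an epithelial ETS factor close to ELF3, averaged 259 ± 24.3 CPM in NF1KO BYL719 and 194 ± 6.96 CPM in NF1KO DMSO cells, against 685 ± 47.8 CPM in CTRL BYL719 and 454 ± 3.28 CPM in CTRL DMSO cells. It fell in NF1KO cells by 1.23 ± 0.09 in DMSO (adjusted p = 1.49e-06) and, with the drug in both lines, by 1.40 ± 0.08 (adjusted p = 5.94e-08). GATA4, a GATA factor of heart and gut, was at 14.3 ± 2.07 CPM in NF1KO BYL719 and 12.1 ± 0.355 CPM in NF1KO DMSO cells, against 2.77 ± 0.275 CPM in CTRL BYL719 and 9.03 ± 0.273 CPM in CTRL DMSO cells, and its drug effects differed by 1.95 ± 0.17 (adjusted p = 3.48e-05). The bZIP factor CREB3L1 was higher in NF1KO cells by 3.00 ± 0.15 in DMSO (adjusted p = 7.57e-08), from a low level of 0.592 ± 0.0268 CPM in CTRL DMSO cells. CREB3L4 was lower in NF1KO cells in BYL719, at -1.05 ± 0.09 (adjusted p = 2.28e-06).

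Of 28 other nuclear receptors, 4 were higher and 6 lower in NF1KO cells in DMSO and 4 and 10 in BYL719. BYL719 raised 5 and lowered 4 in NF1KO cells (9 and 6 without the 2 CTRL replicate-1 libraries), and raised 8 and lowered 5 in CTRL cells. Of all genes, 18.7% were called for BYL719 in NF1KO cells and 44.4% in CTRL cells. PPARG, a receptor of fatty acid ligands, fell with BYL719 by 1.19 ± 0.14 in NF1KO cells (adjusted p = 0.000331) and by 1.13 ± 0.13 in CTRL cells (adjusted p = 2.37e-05). NR3C1 rose with BYL719 by 0.69 ± 0.08 in CTRL cells (adjusted p = 1.93e-05) and was lower in NF1KO than in CTRL cells in BYL719, at -0.65 ± 0.08 (adjusted p = 2.79e-05). Of the COUP-TF genes, NR2F1 was higher in NF1KO cells, at 1.18 ± 0.11 in DMSO (adjusted p = 1.56e-05), and NR2F2 was lower, at -0.49 ± 0.09 (adjusted p = 0.00171). Of 24 estrogen receptor cofactors, 1 was called in DMSO, higher in NF1KO cells, where edgeR called 20.3% of all genes, and 7 were higher and 1 lower in NF1KO cells in BYL719 (2 lower with DESeq2). BYL719 raised 2 and lowered 2 of them in NF1KO cells, and the 4 called in CTRL cells were lower. DESeq2 and limma-voom each called 2 in DMSO as higher. Without the 2 CTRL replicate-1 libraries, 4 were called in DMSO, all higher, and BYL719 lowered 5 in NF1KO cells and 7 in CTRL cells. NRIP1, an estrogen-induced corepressor, was higher in NF1KO cells in BYL719, at 0.71 ± 0.09 (adjusted p = 4.64e-05). NCOA3, a coactivator, fell with BYL719 in CTRL cells by 0.34 ± 0.09 (adjusted p = 0.00786).

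Of 25 classical estrogen-responsive genes, 6 were higher and 8 lower in NF1KO cells in DMSO and 12 and 7 in BYL719, with medians of -0.00821 and 0.108. BYL719 raised 8 and lowered 1 in NF1KO cells (median 0.195), where 18.7% of all genes were called. It raised 4 and lowered 7 in CTRL cells (median 0.103), where 44.4% were called. In CTRL cells without both replicate-1 libraries it raised 7 and lowered 7, and with DESeq2 it raised 6 and lowered 7. The potassium channel gene KCNK5 averaged 3.13 ± 0.0724 CPM in NF1KO BYL719 and 3.04 ± 0.118 CPM in NF1KO DMSO cells, against 13.9 ± 0.793 CPM in CTRL BYL719 and 12.7 ± 0.951 CPM in CTRL DMSO cells, a log2 difference between the lines of -2.06 ± 0.11 in DMSO (adjusted p = 7.68e-08). SERPINA1, which encodes alpha-1 antitrypsin, was lower in NF1KO cells as well, at -1.74 ± 0.12 in DMSO (adjusted p = 8.43e-07). The small heat shock protein gene HSPB8 was higher in NF1KO cells, at 1.48 ± 0.10 in DMSO (adjusted p = 6.93e-07), and so was RERG, a RAS-like GTPase gene, at 0.90 ± 0.09 (adjusted p = 1.51e-05). Genes of this list thus moved both ways while ESR1 was lower in NF1KO cells.

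Of 13 tested progestin-responsive genes, 2 were higher and 4 lower in NF1KO cells in DMSO and 2 and 7 in BYL719. The 4 called for BYL719 in NF1KO cells rose (median 0.342), where 10.3% of all genes rose, and BYL719 raised 7 and lowered 1 in CTRL cells (median 0.362), where 22.6% rose. The medians over all genes were 0.0144 and 0.00491. Without the 2 CTRL replicate-1 libraries BYL719 raised 5 and lowered 2 of the list in NF1KO cells. STAT5A, a mediator of prolactin signalling, rose with BYL719 by 0.91 ± 0.10 in CTRL cells (adjusted p = 2.51e-05). In NF1KO cells its effect was 0.51 ± 0.12 (adjusted p = 0.0121), which was lost without NF1KO DMSO replicate 2 (0.105) or 3 (0.0825). ELF5, an ETS factor of the alveolar lineage, rose by 0.68 ± 0.08 in CTRL cells (adjusted p = 4.68e-05). CALCR, the calcitonin receptor gene, was at 0.366 ± 0.0453 CPM in NF1KO BYL719 and 0.347 ± 0.0471 CPM in NF1KO DMSO cells, against 20.2 ± 1.28 CPM in CTRL BYL719 and 16.5 ± 0.467 CPM in CTRL DMSO cells.

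Of 18 other luminal-linked transcription factors, 2 were higher and 4 lower in NF1KO cells in DMSO and 5 and 6 in BYL719. BYL719 raised 5 and lowered 1 in NF1KO cells, where 18.7% of all genes were called. It raised 7 and lowered 2 in CTRL cells, where 44.4% were called. Without the 2 CTRL replicate-1 libraries, 4 were higher in NF1KO cells in DMSO, and BYL719 lowered 4 in CTRL cells. KLF4 averaged 6.31 ± 0.806 CPM in NF1KO BYL719 and 6.46 ± 0.293 CPM in NF1KO DMSO cells, against 12.1 ± 0.935 CPM in CTRL BYL719 and 5.36 ± 0.341 CPM in CTRL DMSO cells. Its level was highest in CTRL BYL719 cells, as was that of ELF3, and its drug effects differed by -1.21 ± 0.16 (adjusted p = 0.000593). TBX3 was higher in NF1KO than in CTRL cells in BYL719, at 0.91 ± 0.08 (adjusted p = 2.16e-06), and LMO4 was lower, at -0.78 ± 0.07 (adjusted p = 3.8e-06).

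Of 23 genes of the unfolded protein response, the pathway of XBP1, 11 were higher and 3 lower in NF1KO than in CTRL cells in BYL719, and the 3 called in DMSO were higher, or 7 without the 2 CTRL replicate-1 libraries and 7 with DESeq2. BYL719 lowered 7 and raised 1 in NF1KO cells (9 and 4 without those libraries), where 8.47% of all genes fell, and lowered 11 and raised 4 in CTRL cells, where 21.8% of all genes fell. HYOU1, a chaperone of the endoplasmic reticulum, fell with BYL719 by 0.38 ± 0.06 in NF1KO cells (adjusted p = 0.00102) and by 0.44 ± 0.05 in CTRL cells (adjusted p = 2.56e-05). SDF2L1, another resident of that compartment, fell by 0.53 ± 0.10 in NF1KO cells (adjusted p = 0.00354) and by 0.94 ± 0.09 in CTRL cells (adjusted p = 6.18e-06). SEC24D, a coat protein of transport vesicles, was higher in NF1KO cells by 1.22 ± 0.09 in DMSO (adjusted p = 9.45e-07). The table gives 1 count per gene, so spliced and unspliced XBP1 mRNA were not separated.

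**Figure D4:**
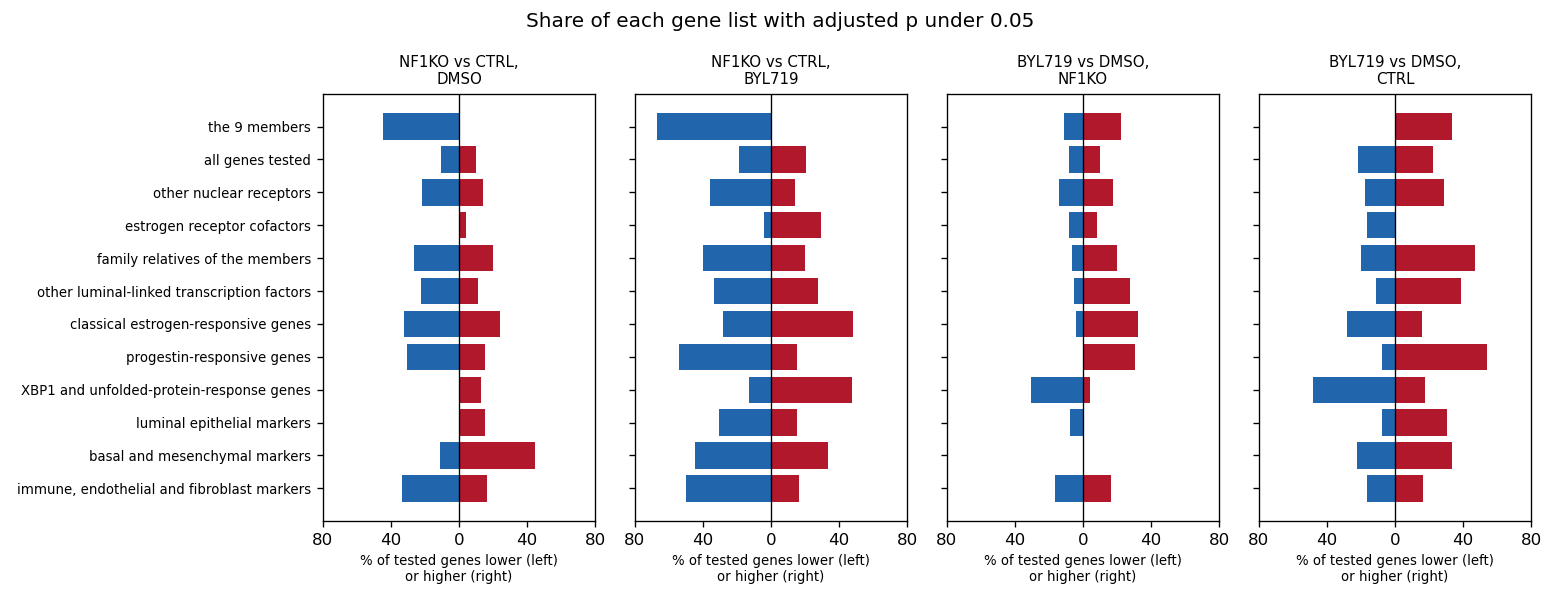
Share of the tested genes of each list (x axis, percent) with an adjusted p under 0.05, lower to the left and higher to the right, in the 4 pairwise comparisons. All tested genes are given as a row for scale; the 9 genes have no bar to the right in either comparison of NF1KO with CTRL, where without the 2 CTRL replicate-1 libraries, or with DESeq2, 1 was called higher in DMSO.

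Markers of cell types were counted in the same way. For scale, 20.3% of all tested genes were called between the lines in DMSO and 39.8% in BYL719. For BYL719 against DMSO, 18.7% were called in NF1KO cells and 44.4% in CTRL cells. Of 13 luminal epithelial markers, the 2 called in DMSO were higher in NF1KO than in CTRL cells (4 with DESeq2; 4 higher and 1 lower without the 2 CTRL replicate-1 libraries), and in BYL719 2 were higher and 4 lower. BYL719 lowered the 1 that was called in NF1KO cells (2 with DESeq2, 6 without those libraries), and raised 4 and lowered 1 in CTRL cells. Their summed level was 9858 to 11040 CPM in NF1KO BYL719 libraries, 11590 to 11740 CPM in NF1KO DMSO libraries, 10770 to 13460 CPM in CTRL BYL719 libraries and 9582 to 11530 CPM in CTRL DMSO libraries. Most of it was KRT8, KRT18 and KRT19. For KRT7, a simple epithelial keratin, the drug effect was lower in NF1KO than in CTRL cells by a log2 difference of -1.10 ± 0.18 (adjusted p = 0.00214), a direction it had in common with SPDEF and ELF3. Of the 13 luminal markers, the difference of drug effects was called lower for 2 and higher for 1 (7 and 1 without the 2 CTRL replicate-1 libraries). The higher one was ESRP1, at 0.47 (adjusted p = 0.00421). Of 9 tested basal and mesenchymal markers, 4 were higher and 1 lower in NF1KO than in CTRL cells in DMSO, and 3 were higher and 4 lower in BYL719. BYL719 raised 3 and lowered 2 in CTRL cells, while in NF1KO cells edgeR, DESeq2 and limma-voom called 0 and 1 had an unadjusted p under 0.05; without the 2 CTRL replicate-1 libraries edgeR called 1, higher. The summed level of these markers was 27.9 to 31.2 CPM in NF1KO BYL719 libraries, 25.8 to 26.1 CPM in NF1KO DMSO libraries, 22.6 to 27.9 CPM in CTRL BYL719 libraries and 20.1 to 23.6 CPM in CTRL DMSO libraries. Most of it was FOXC1 and MYLK. MYLK was at 8.57 ± 0.434 CPM in NF1KO BYL719 cells and 7.49 ± 0.0683 CPM in NF1KO DMSO cells. In CTRL cells it was at 11.7 ± 2.5 CPM under BYL719 and 10.9 ± 1.49 CPM under DMSO. FOXC1, a basal factor, was at 12.9 ± 1.29 CPM in NF1KO BYL719 cells and 10.7 ± 0.478 CPM in NF1KO DMSO cells, against 5.52 ± 0.536 CPM in CTRL BYL719 cells and 4.95 ± 0.498 CPM in CTRL DMSO cells. The basal keratin gene KRT17 went the other way in BYL719, from a low level. It was at 0.108 ± 0.0325 CPM in NF1KO BYL719 cells and 1.31 ± 0.0937 CPM in CTRL BYL719 cells. Of 6 tested immune, endothelial and fibroblast markers, 1 was higher and 2 lower in NF1KO than in CTRL cells in DMSO and 1 and 3 in BYL719, and BYL719 raised 1 and lowered 1 in each line. Their summed level was 19.6 to 24.7 CPM in NF1KO BYL719 libraries, 28.2 to 28.3 CPM in NF1KO DMSO libraries, 31 to 39 CPM in CTRL BYL719 libraries and 52.5 to 58.2 CPM in CTRL DMSO libraries, most of it COL1A1. The part of these markers in the results for the 9 genes was not tested.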

How the data were processed

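Messenger RNA was sequenced as stranded single reads. Per the labels' protocols, libraries were made with a TruSeq stranded mRNA kit. The submitters' processing notes name STAR 2.5.2a, SAMtools 1.7, Picard 2.9.2, edgeR and hg38, while the counting tool, its strand setting and its annotation are not given in the sources used here. The authors deposited raw counts per Entrez gene, which were used as they stand. The labels give 12 samples. The counts used here include none for the first NF1KO DMSO replicate, which was therefore not analysed. RefSeq held 27740 of the 27864 identifiers, and a symbol was missing for 63.

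The counts were fitted with edgeR 4.0.16 (R 4.3.3): filterByExpr (16081 genes left), TMM scaling and a quasi-likelihood fit of the 4 groups with 7 residual degrees of freedom. Tests were 2-sided, with Benjamini-Hochberg adjustment over the genes tested, and calls had an adjusted p under 0.05. The SE follows from the log2 fold change and its F statistic. CPM errors are SDs between libraries. Levels per kilobase used the merged exons of GENCODE v29, whose overlap with other genes holds under 20% as many counts as any of the 9 genes; SYNE1, which overlaps ESR1, has 6.55% as many counts as ESR1. Promoter sequences are RefSeq's.

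The 9 genes and the gene lists were chosen with earlier results of these data known. The 9 genes and NF1 are always named; of a list, up to 4 genes called in a comparison were eligible, by smallest adjusted p, and for each called gene of the 9 the 3 most similar genes, among protein-coding genes (RefSeq) whose log2 CPM (prior count 2) averaged 2 or more. Some genes eligible by this rule, and the genes most similar to GATA3, are not reported here. Alternatives were DESeq2 1.42.0, limma-voom (limma 3.58.1), scaling by RLE or upper quartiles, all genes without a filter, a filter of 1 CPM in 3 libraries, a replicate block, fits of the compared libraries alone, and omission of libraries; those for list counts were added after the data were seen. Leaving out an NF1KO DMSO library leaves 1, which is assumed to vary like the other groups. Replicate numbers come from the titles. In CTRL cells, deviations from the group means of same-numbered BYL719 and DMSO libraries correlated at 0.595, 0.337 and 0.318 over genes (not independent of each other). Differently numbered libraries correlated at -0.362 to -0.419 with replicate 1, and at 0.177 and 0.228 between replicates 2 and 3. The numbers thus pair replicate 1 clearly and replicates 2 and 3 only weakly. In NF1KO cells only 2 pairs exist, at 0.0838 and 0.149. The main edgeR fit was tested on simulated counts. The alternatives, the likeness measure, the ratios and the motif search were not. Figures were drawn with matplotlib 3.10.9.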

Additional observations from a re-analysis of the deposited data

Results flagged for a closer look

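The effect of BYL719 differed between NF1KO and CTRL cells for 3 of the 9 genes, by the interaction term of the edgeR fit. Of all tested genes 9.39% were called, 5.68% as higher and 3.71% as lower in NF1KO cells. Values are log2 differences of the effects, NF1KO minus CTRL. That of ESR1 was 0.44 (adjusted p = 0.035), that of ELF3 -0.72 (0.0151) and that of SPDEF -0.84 (0.0316).

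Among genes named from the lists, the effect was also more positive in NF1KO cells for GATA4, at 1.95 (adjusted p = 3.48e-05), RERG, at 0.77 (0.00152), NR2F1, at 0.59 (0.0351), TBX3, at 0.51 (0.0177), ESRP1, at 0.47 (0.00421), MANF, at 0.44 (0.0289), and SEC24D, at 0.43 (0.0398). It was more negative for KRT17, at -3.30 (0.000943, a gene under 2 CPM), OXTR, at -1.60 (0.0135, also under 2 CPM), KLF4, at -1.21 (0.000593), KRT7, at -1.10 (0.00214), HSPB8, at -0.92 (0.00096), CREB3L4, at -0.61 (0.0139), KRT18, at -0.59 (0.0325), LMO4, at -0.43 (0.028), and NR3C1, at -0.41 (0.0414). These list genes had been picked for naming by adjusted p in pairwise comparisons of the same data, so their number is not a share of the lists. The calls of GATA4, RERG, ESRP1, KRT17, KLF4, KRT7 and HSPB8 held under all alternatives run. Those of the other genes, ESR1, ELF3 and SPDEF included, were lost without at least 1 of the NF1KO DMSO libraries, of which there are 2. For ELF3, OXTR and CREB3L4 no other alternative lost the call. Omission of single libraries of other groups also lost the calls of ESR1, SPDEF, NR2F1, TBX3, MANF, SEC24D, KRT18, LMO4 and NR3C1. That of NR3C1 was lost with no filter on low counts as well (adjusted p = 0.0656).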

How the results depend on the processing

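For the 9 genes, 918 alternative values were computed: 836 kept their direction and their side of the threshold, 36 lost a call, 17 gained one and 29 changed sign. The lost and gained calls stand beside each gene above, and no called value changed sign. Genes called for BYL719 in NF1KO cells numbered 3014, against 4664 with a replicate block over both lines, 6744 with the block within each line, 5312 when both CTRL number-1 libraries were left out, and 788 (NF1KO DMSO replicate 3 omitted) to 3962 with 1 library left out. For the difference of effects the count was 1510, against 4345 with the block within each line, 2411 when both CTRL number-1 libraries were left out, and 740 to 2155 with 1 library left out, lowest when NF1KO DMSO replicate 3 was omitted. For NF1KO against CTRL in DMSO it was 3269, and 1523 to 4256 with 1 library left out. Of the 9 genes, the number called without 1 library was 1 to 4 for BYL719 in NF1KO cells, 0 to 3 for the difference and 2 to 5 for NF1KO against CTRL in DMSO. The replicate block within each line changed the call of SPDEF in CTRL cells, of GATA3 in NF1KO cells and of the TFAP2A difference, and no other call of the 9 genes. Sign changes fell on values near 0. That of the TFAP2C difference (-0.00) was 0.008278 with no filter, 0.03767 with the block over both lines, 0.05259 within each line, 0.001726 without both CTRL number-1 libraries, and -0.04684 to 0.05155 with 1 library left out. XBP1 with BYL719 in CTRL cells (-0.01) was 0.000496 with the 1 CPM filter, 0.005845 with upper-quartile scaling, 0.01886 without both CTRL number-1 libraries and -0.1079 to 0.1189 with 1 left out. With the block over both lines, XBP1 with BYL719 in NF1KO cells was 0.02456 and its difference 0.03938. With 1 library left out, the other values that changed sign ranged over -0.007135 to 0.1035 (ESR1 with BYL719 in CTRL cells), -0.0531 to 0.07387 (TFAP2A in NF1KO against CTRL cells in BYL719), -0.03522 to 0.05247 (TFAP2C with BYL719 in CTRL cells), -0.02605 to 0.07169 (TFAP2C with BYL719 in NF1KO cells), -0.1843 to 0.03906 (the XBP1 difference) and -0.1104 to 0.03054 (XBP1 in NF1KO against CTRL cells in DMSO). The cause of these changes was not tested. The median of all genes was at most 0.0288 in size on the log2 scale under the alternatives run.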
